A study of Mus musculus with 16 samples.

Results

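Ms4a4a, Ms4a4c, Ms4a6b, Ms4a6c, Ms4a6d and Ms4a7 were described in macrophages and microglia sorted from mouse brains, as 6 of the 18580 genes to which the transcripts of the series were summed. The 6 genes were chosen by name, and a transcript absent from a table was taken as 0. The brains came from male and female CD163KO mice, which carry a targeted deletion of Cd163 (a KOMP allele), and from their WT littermates (C57BL/6N), 12 weeks old at surgery. All mice received α-synuclein (α-syn) in both striata, either as monomers (MONO), the control form, or as pre-formed fibrils (PFF), and the cells were taken 2 months post-injection (p.i.). Macrophages were gated as CD11b+ cells with high CD45, a gate that by the methods also takes in neutrophils and NK cells, and microglia as CD11b+ cells with low to intermediate CD45. The deletion is constitutive and not limited to the sorted cells.

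The Ms4a genes encode membrane-spanning 4A proteins, which cross the membrane several times and often sit beside immune receptors. The family includes Ms4a1, which encodes the B cell antigen CD20, and Ms4a2, which encodes the β chain of the IgE receptor. Ms4a4a and Ms4a7 are widely used markers of tissue macrophages, and Ms4a7 is a common marker of macrophages at the borders of the brain. Human MS4A4A and MS4A6A lie in a locus linked to Alzheimer's disease and to soluble TREM2, and in the mouse the Ms4a6 group has expanded to several close copies.

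Each combination of population, sex, genotype and treatment was represented by 1 table, giving 8 libraries of macrophages and 8 of microglia. The study excluded the male CD163KO MONO libraries of both populations, and 7 libraries per population were kept for the tests. Total estimated counts ranged from 12170686 to 21433841 in macrophages and from 8648751 to 18768238 in microglia. Of 12 markers of border-associated macrophages, the summed FPKM was 1953 to 5336 in macrophages and 28.9 to 157 in microglia, and of 12 markers of homeostatic microglia it was 956 to 1877 and 17736 to 43448. The markers of neutrophils summed to between 22159 and 134639 FPKM in macrophages, and those of monocytes to between 322 and 3076. The macrophage libraries were therefore mixed myeloid samples, in which fewer cells of a type and less RNA per cell cannot be told apart. The male WT PFF libraries stood apart in both populations. Their correlation of log2 FPKM with the other macrophage libraries was 0.78 to 0.81, against 0.93 to 0.96 among the 6 libraries other than this and the excluded one. In microglia, Cst3 reached an FPKM of 261156 in male WT PFF and 237697 in the excluded library, against at most 73243 in the 6 others. The microglia library labelled female CD163KO MONO held 799 counts of 4 Y-linked genes, against at most 2 in the other libraries labelled female and 434 to 1997 in those of male microglia. It goes by its label below, with results given without it where they rest on it. Cd163 had 748 to 5275 counts in WT macrophages and 0 or 1 in CD163KO macrophages, while in microglia both genotypes had few, 0 to 101 in WT and 5 to 23 in CD163KO.

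The 6 genes share a stretch of chromosome 19 (GRCm38.p6, RefSeq), from Ms4a7 at one end to Ms4a6d at the other (chr19:11321039-11604804, 283.8 kb). This stretch held 9 protein-coding genes, of which 8 were Ms4a genes. Ms4a6b and Ms4a6c are close copies, and their sequences before the transcription start are shown because both genes were abundant in macrophages while their levels in microglia differed. The windows hold the 250 bases before the start from RefSeq (GRCm38.p6), on the plus strand, at chr19:11518309-11518558 for Ms4a6b and at chr19:11469118-11469367 for Ms4a6c. Capitals mark the longest run that the pair share, of 48 bases.
Ms4a6b: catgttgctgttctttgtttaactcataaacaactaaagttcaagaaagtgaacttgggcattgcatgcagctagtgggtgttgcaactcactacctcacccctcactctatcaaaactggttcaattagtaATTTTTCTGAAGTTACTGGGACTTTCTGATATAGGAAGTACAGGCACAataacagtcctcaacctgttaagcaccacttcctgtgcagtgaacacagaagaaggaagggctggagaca
Ms4a6c: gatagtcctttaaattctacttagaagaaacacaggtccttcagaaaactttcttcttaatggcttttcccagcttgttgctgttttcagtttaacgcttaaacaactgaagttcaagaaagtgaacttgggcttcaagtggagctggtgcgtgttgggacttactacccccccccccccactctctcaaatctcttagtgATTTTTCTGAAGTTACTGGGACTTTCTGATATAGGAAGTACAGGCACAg
The shared run ended 71 bases before the start in Ms4a6b and 2 bases before it in Ms4a6c, and the windows of 300 bases that also hold the first 50 bases after the start were 82.7% identical over 220 aligned bases. Between every other pair of member windows, at most 44 bases could be aligned. No window was available for Ms4a6d, which was therefore not compared.

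In 6 windows of 300 bases at the starts of 5 members (2 starts for Ms4a7), 4 motifs of myeloid and interferon factors were searched on both strands. The core of the PU.1 site, GAGGAA, was found in Ms4a4c and in the first Ms4a7 window, and in 28.3% of all 32851 windows of the table. The AP-1 site, TGANTCA, was found in the second Ms4a7 window and in 7.8% of all windows. The composite site of PU.1 and IRF and the interferon-stimulated response element were in no member window, and in 2.7% and 3.4% of all windows. The AP-1 letters do not overlap the other motifs found. The Ms4a4c window before the start (chr19:11407411-11407660, plus strand) is shown with GAGGAA in capitals, since PU.1 is the defining factor of the myeloid lineage.
Ms4a4c: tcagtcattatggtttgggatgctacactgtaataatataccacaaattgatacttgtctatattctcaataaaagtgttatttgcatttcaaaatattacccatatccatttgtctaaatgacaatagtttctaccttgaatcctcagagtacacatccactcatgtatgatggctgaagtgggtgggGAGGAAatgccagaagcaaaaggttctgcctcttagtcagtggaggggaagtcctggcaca
The GC content of the member windows was 31.7% to 45.0%, against a median of 52.7% over all windows.

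All 6 genes were expressed in macrophages, and Ms4a7 had the highest level of them in 8 of 8 libraries. Levels here are FPKM, which scale counts to transcript length, over the 7 kept libraries. Ms4a7 ranged from 367 to 809 (median 571), and Ms4a6c ranged from 122 to 442 (median 248). Ms4a6b ranged from 114 to 284 (median 182) and Ms4a6d from 88.6 to 320.3 (median 143). Ms4a4a, which marks alternatively activated macrophages, ranged from 75.5 to 307 (median 118), and Ms4a4c from 61.3 to 149 (median 90.7). The summed FPKM of the 6 genes was 867 to 2154 over all 8 libraries, and Ms4a7 made up 25.3% to 46.9% of it.

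In microglia the order was different, with Ms4a6d first and Ms4a6b next in 8 of 8 libraries. Ms4a6d ranged from 35.4 to 167 FPKM (median 129) and Ms4a6b from 19.8 to 90.1 (median 75.1). Ms4a6c was lower, at 4.37 to 35.3 (median 19.1). Ms4a7 ranged from 0.99 to 25.4 (median 5.6), Ms4a4c from 0.29 to 5.47 (median 3.33) and Ms4a4a from 0.07 to 14.9 (median 1.4). The sum of the 6 genes was 68.2 to 281 FPKM over all 8 libraries, of which Ms4a6d took 48.8% to 59.3%. The lowest sum in FPKM was that of male WT PFF, in which Ms4a6d was at 35.4 and Ms4a6b at 19.8. These low levels depended on the scale. In CPM (counts scaled to the library total) scaled by TMM factors within microglia, they were at 187 and 127. Both were the highest of the 7 kept libraries, with the next at 175 and 119. Ms4a6c was highest there too, at 66.1, while Ms4a4c was lowest, at 1.89. The TMM factor of this library was 0.254, against 1.22 to 1.32 in the other kept microglia libraries.

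**Figure D1:**
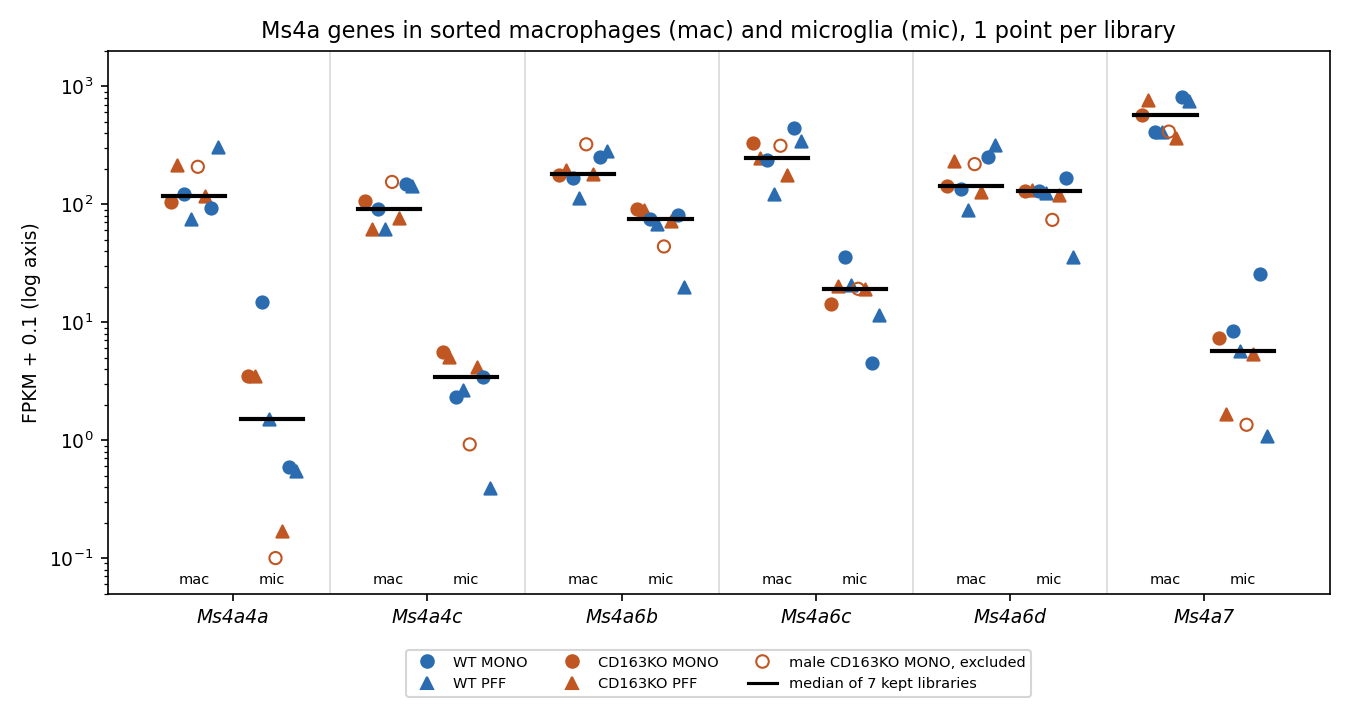
Levels of the 6 Ms4a genes in every library, as FPKM + 0.1 on a log axis, with macrophages (mac) at the left and microglia (mic) at the right of each gene; colour gives the genotype, shape the treatment, open circles the excluded male CD163KO MONO libraries and bars the median of the 7 kept libraries. The ranges of both populations overlap for Ms4a6d, and the medians of Ms4a7 are 571 and 5.6.

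Neighbours in these orders were compared within libraries, as the difference of log2(FPKM + 1), by a two-sided exact permutation test that flips signs over the 7 kept libraries, with p-values adjusted (Benjamini-Hochberg) over 10 pairs. The orders came from the median FPKM of these same libraries, so the pairs and their directions were chosen from the values tested. The smallest p this test allows is 0.0156, or 0.0391 adjusted here. In macrophages, Ms4a7 lay above Ms4a6c in 7 of 7 libraries, by 1.14 ± 0.39 (SD, n = 7, exact adjusted p = 0.0391). Ms4a6d lay above Ms4a4a in 7 of 7, by 0.36 ± 0.49 (SD, n = 7, exact adjusted p = 0.0391). The latter gap was widest in male WT MONO, with Ms4a6d at 249 and Ms4a4a at 92.7 FPKM. The differences of Ms4a6c and Ms4a6b (exact adjusted p = 0.0625), Ms4a6b and Ms4a6d (0.226) and Ms4a4a and Ms4a4c (0.215) did not pass. By median CPM in macrophages, Ms4a6b (297) lay above Ms4a6c (228), and Ms4a4c (152) above Ms4a4a (111), the reverse of the order by FPKM. In microglia, Ms4a6d lay above Ms4a6b by 0.75 ± 0.18 and Ms4a6b above Ms4a6c by 2.00 ± 1.05 (SD, n = 7, 7 of 7 libraries each, exact adjusted p = 0.0391 each). Ms4a6c, Ms4a7, Ms4a4c and Ms4a4a followed in this order, and no neighbours among these 4 differed beyond the spread between libraries (exact adjusted p = 0.156 to 0.438).

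Every one of the 6 genes was lower in microglia than in macrophages when libraries were scaled by the TMM method. Each microglia library was set against the macrophage library with the same labels of sex, genotype and treatment, 7 pairs in all, in edgeR's quasi-likelihood test, and differences are microglia minus macrophages in log2 with the SE. Ms4a7 differed by -8.18 ± 0.56 (adjusted p = 3.12e-06) and Ms4a4a by -7.83 ± 0.79 (adjusted p = 4.14e-05). These macrophage markers had the largest estimates of the 6. Ms4a4c differed by -6.59 ± 0.32 (adjusted p = 5.53e-07) and Ms4a6c by -4.61 ± 0.47 (adjusted p = 4.8e-05). Ms4a6b differed by -2.93 ± 0.23 (adjusted p = 7.47e-06) and Ms4a6d by -2.01 ± 0.21 (adjusted p = 5.36e-05). The count of 6 of 6 stands against 18.2% of the 13704 genes tested that were called in either direction, and 11.6% that were called lower. The median difference of the 6 was -5.60, and that of all genes was 0.37. The Y-linked counts of the female CD163KO MONO pair, 0 in the macrophages and 799 in the microglia, did not match, and without it 6 of 6 genes were again called, from -8.14 ± 0.64 for Ms4a7 to -1.96 ± 0.24 for Ms4a6d (edgeR adjusted p = 4.1e-05 and 0.000394).

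The call of Ms4a6d depended on the scaling. Its FPKM in macrophages was 143 in female CD163KO MONO, 233 in female CD163KO PFF, 134 in female WT MONO, 88.6 in female WT PFF, 126 in male CD163KO PFF, 249 in male WT MONO and 320.3 in male WT PFF. In the same order, its FPKM in microglia was 129, 131, 129.8, 125, 120.2, 167 and 35.4. Macrophages were higher in 6 of 7 pairs, with a lower value in female WT PFF, and the ratio of the medians was 1.11. With total counts in place of TMM, Ms4a6d differed by -0.55 ± 0.50 (edgeR adjusted p = 0.36), and in limma on log2(FPKM + 1) by -0.62 ± 0.43 (adjusted p = 0.234). The median of all genes shifted to 1.96 and 1.12 under these scalings, and relative to it Ms4a6d lay at -2.38 with TMM, -2.51 with total counts and -1.74 in limma.

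The other 5 genes were higher in macrophages in 7 of 7 pairs, the populations did not overlap in FPKM, and each was called under all scalings run. The share of all genes without overlap between the populations was not determined. Called lower in microglia were 11.6% of all genes with TMM, 4.37% with total counts and 5.98% in limma on log2(FPKM + 1). The differences of these 5 genes were smaller in size with total counts and in this limma fit than with TMM. Ms4a6b then differed by -1.485 ± 0.492 (edgeR adjusted p = 0.0133) and -1.522 ± 0.413 (limma adjusted p = 0.00834). The ratio of the median FPKM, macrophages to microglia, was 102 for Ms4a7, 84.2 for Ms4a4a, 27.2 for Ms4a4c, 12.99 for Ms4a6c and 2.42 for Ms4a6b. On the same measure, the summed markers of border-associated macrophages had a ratio of 35.4, those of monocytes 24.7, those of neutrophils 67.6 and those of homeostatic microglia 0.064. In microglia 1 gene led each of the first 2 sums, with Stab1 at 28.9% to 74.8% of the border-associated markers and Chil3 at 68.9% to 88.3% of the monocyte markers. Without these genes the ratios were 85.97 and 69.4. Of the 12 genes of each list, 11 for border-associated macrophages and 11 for neutrophils were called lower in microglia and 11 for homeostatic microglia higher. The remaining neutrophil gene was called higher, and 9 of 10 monocyte genes were called lower. These counts stand beside 11.6% of all genes called lower and 6.64% called higher. With total counts, 10 border-associated, 10 neutrophil and 9 monocyte genes were lower beside 4.37% of all genes, and 12 of 12 genes of homeostatic microglia were higher beside 41.7%. The part of these cell types in the differences of the Ms4a genes was not tested. Without the male WT PFF pair, 6 of 6 genes were again called lower, and the genes called overall rose from 2499 to 4869.

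**Figure D2:**
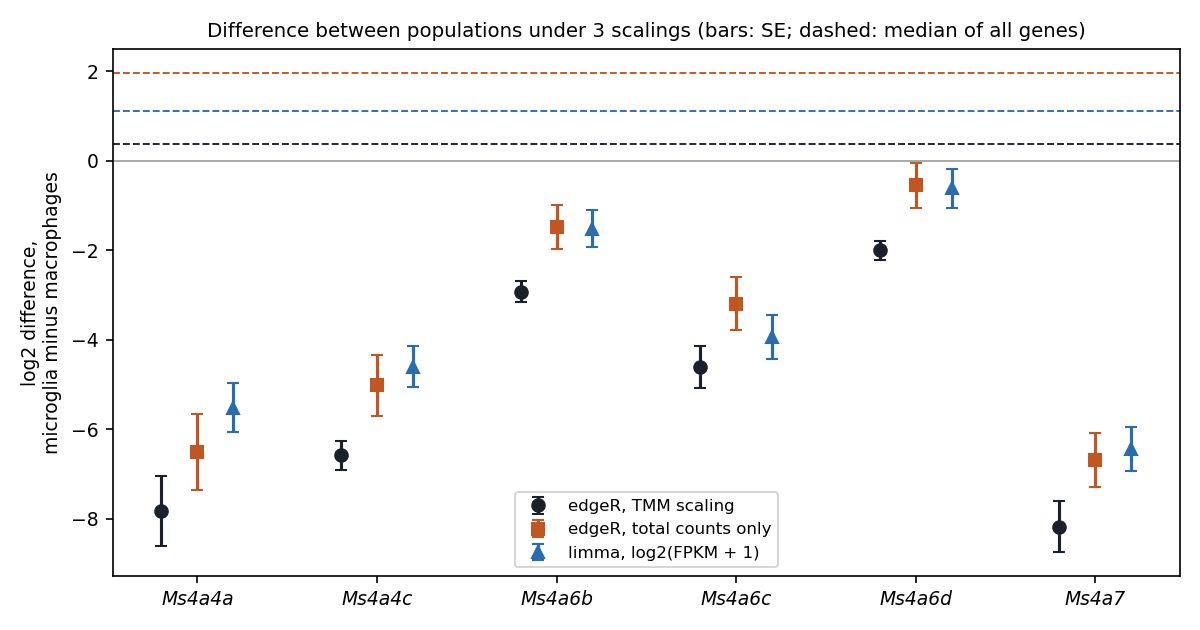
Difference of each Ms4a gene between microglia and macrophages (log2, microglia minus macrophages) with the SE, over 7 pairs of libraries, for edgeR with TMM scaling, edgeR with total counts and limma on log2(FPKM + 1); dashed lines give the median of all genes in the colour of each fit. Ms4a7 and Ms4a4a lie lowest, and Ms4a6d moves from -2.01 with TMM to -0.55 with total counts.

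Ms4a6c was listed as 2 RefSeq transcripts, of 714 bases (NM_001166376) and of 1844 bases (NM_028595). In the 7 kept macrophage libraries the short one took 46.1% to 69.4% of the estimated counts of the gene (median 51.4%), and in microglia 0% to 19.2% (median 6.31%). It was higher in macrophages in 7 of 7 pairs, by 47.2 ± 12.5 percentage points (SD, n = 7), with p = 0.0156 in a two-sided exact permutation test that flips signs, the smallest it allows. In the excluded male CD163KO MONO macrophages the share was 29.5%. A read of the short transcript adds more to FPKM than one of the long transcript, so that the FPKM of Ms4a6c also moved with this share. In CPM, counts scaled to the library total and not to length, the median of Ms4a6c was 228 in macrophages and 27.1 in microglia. The split between the transcripts is an estimate.

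**Figure D3:**
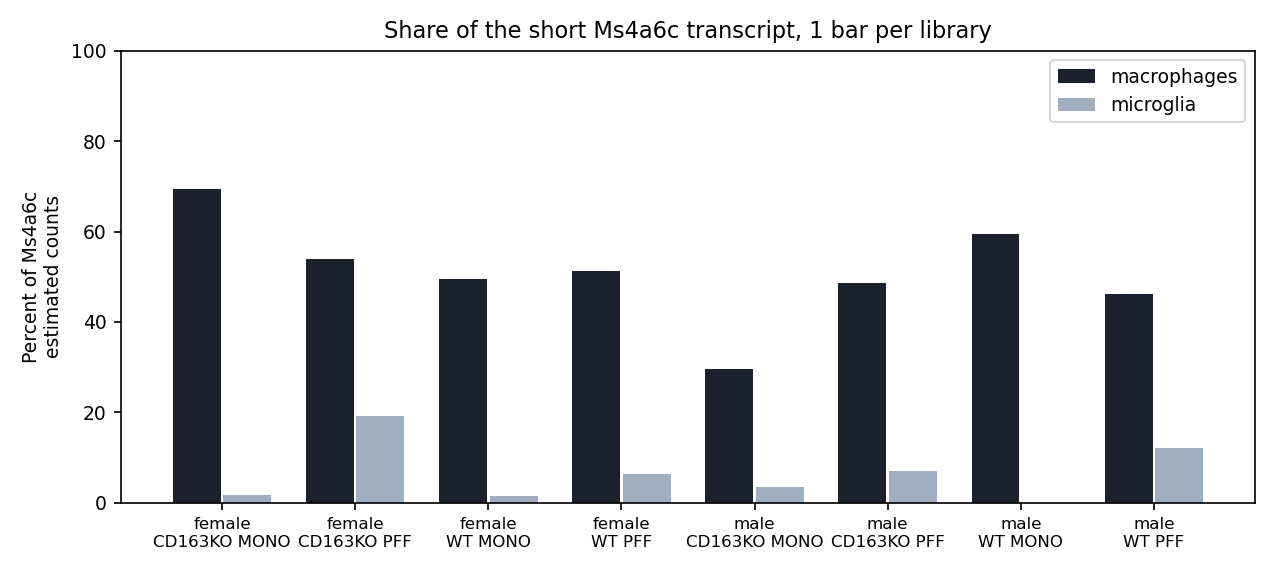
Share of the 714-base transcript in the estimated counts of Ms4a6c, in percent, with 1 bar per library for macrophages and microglia of each combination of sex, genotype and treatment. Macrophage libraries lie between 29.5% and 69.4% and microglia libraries between 0% and 19.2%.

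Ms4a7 was listed as 3 transcripts, and 90.4% to 100% of its counts in macrophages were given to NM_027836, while NM_001025610 took at most 9.58% and NM_001276398 at most 0.05%. In microglia, NM_027836 took 94.9% to 100% in 6 of the 7 kept libraries. In male WT PFF microglia it took 17.7% and NM_001025610 took 82.3%, and in the excluded male CD163KO MONO microglia NM_001025610 took 100%, shares that rested on 23 and 28 counts of the gene. The other 4 genes had 1 transcript each. Close copies share sequence. The long transcripts of Ms4a6b and Ms4a6c were 89.2% identical over 1124 aligned bases, those of Ms4a6b and Ms4a6d 86.0% and those of Ms4a6c and Ms4a6d 83.2%. Of the 50-base windows of Ms4a6b 8.5% were found in another gene, as were 6.1% for the long transcript of Ms4a6c. The share was 2.9% for Ms4a6d and 8.5% for Ms4a4c, whose windows were shared mostly with Ms4a4b. The short transcript of Ms4a6c was not compared at either length. With windows of 100 bases the share was 0% for Ms4a6b, Ms4a6c and Ms4a6d and 1.7% for Ms4a4c, and for Ms4a4a and Ms4a7 it was 0% at both lengths. The read length is not given in the sources used here.

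The first comparison within a population asked how the loss of CD163, a scavenger receptor of macrophages, went with the Ms4a genes. In macrophages, none of the 6 genes was called between CD163KO and WT (edgeR, adjusted p = 1 for each), none had an unadjusted p under 0.05, and DESeq2 and limma called 0. All 6 estimates were positive, from 0.22 ± 0.39 for Ms4a4c to 0.48 ± 0.31 for Ms4a4a (log2, CD163KO minus WT, SE), with a median of 0.42 beside 0.14 over all genes. This shared direction depended on the setting: over 14 alternatives Ms4a4c turned negative in 5 (-0.20 to 0.83), Ms4a6d in 2 and Ms4a4a in 1. Over the 6 genes, the lowest limit of a 95% interval was -0.68 (Ms4a4c) and the highest was 1.32 (Ms4a7). Over all genes 1 of 11988 was called (0.00834%).

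Levels within a population are given as CPM scaled by TMM factors. In CD163KO macrophages, Ms4a6d was at 255 in female MONO, 313 in female PFF and 249.8 in male PFF, and in WT macrophages at 156 in female MONO, 227 in female PFF, 229.9 in male MONO and 199.9 in male PFF. Ms4a6d was the gene whose genotypes did not overlap, 1 of 6 beside 3.85% of all genes, with a difference of 0.40 ± 0.32 (log2, SE, edgeR adjusted p = 1). In FPKM, its genotypes overlapped, and the estimate lay between -0.002 and 0.58 over 14 alternatives (adjusted p = 0.993 to 1). Ms4a7 was at 965, 978 and 691 in CD163KO and at 449, 986, 708 and 448 in WT macrophages, in the same order, and the groups overlapped.

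In microglia, 0 of 6 genes were called between CD163KO and WT (edgeR, adjusted p = 1 for each, beside 0% of 12725 genes called). At an unadjusted p under 0.05 the count was 0, as by DESeq2 and limma. The abundant genes had narrow intervals, with 0.13 for Ms4a6b (95% interval -0.52 to 0.77, log2) and -0.13 for Ms4a6d (-0.77 to 0.52). The rare ones did not, as for Ms4a4a with -1.98 (-6.22 to 2.26). Ms4a4c was at 7.35 in female MONO, 6.73 in female PFF and 5.57 in male PFF of CD163KO, and at 2.83, 3.47, 4.34 and 1.89 in WT, for female MONO and PFF and then male MONO and PFF (TMM-scaled CPM). The CD163KO libraries were thus the 3 highest, which made Ms4a4c 1 of 6 genes without overlap beside 4.15% of all genes, with a difference of 1.11 ± 1.03 (log2, SE, edgeR adjusted p = 1). Without the female CD163KO MONO library the difference was 1.20 ± 1.53 (edgeR adjusted p = 1). In FPKM the excluded male CD163KO MONO library had 0.82, below 3 of the 4 WT libraries.

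The second comparison asked how the fibrils went with the Ms4a genes. In macrophages, 0 of 6 genes were called between PFF and MONO (edgeR, adjusted p = 1 for each, beside 0% of 11988 genes called). At an unadjusted p under 0.05 the count was 1 of 6, beside 125 of 11988 genes (1.04%), and DESeq2 and limma called 0. Ms4a4a was at 129.7 in female CD163KO, 98.3 in female WT and 59.6 in male WT given MONO, and at 203 in female CD163KO, 163 in male CD163KO, 135 in female WT and 134 in male WT given PFF (TMM-scaled CPM). The 4 PFF libraries were the highest, and Ms4a4a was 1 of 6 genes whose groups did not overlap, beside 5.15% of all genes. The difference was 0.76 ± 0.32 (log2, PFF minus MONO, SE, unadjusted p = 0.0458, edgeR adjusted p = 1). In FPKM the groups overlapped, with 75.5 in female WT PFF below each MONO library. The excluded male CD163KO MONO library had 207.5 FPKM of Ms4a4a, above 2 of the 4 PFF libraries (75.5 and 118). The summed markers of neutrophils in these macrophages were 98698, 121174 and 118524 FPKM with MONO and 32921, 134639, 22159 and 71548 with PFF, in the order used for Ms4a4a, so that 3 of the 4 PFF libraries lay below each MONO library. Their part in the Ms4a4a values was not tested. The other 5 genes had estimates from -0.39 (Ms4a6c) to 0.14 (Ms4a6d), and 4 of them, all but Ms4a6c, changed sign in 1 to 6 of 14 alternatives.

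In microglia, 0 of 6 genes were called between PFF and MONO (edgeR, adjusted p of 0.776 or above, beside 0% of 12725 genes called). At an unadjusted p under 0.05 the count was 0, as by DESeq2 and limma. Ms4a7 was at 7.55 in female CD163KO, 8.11 in female WT and 25.3 in male WT given MONO, and at 1.61 in female CD163KO, 5.48 in male CD163KO, 5.78 in female WT and 4.82 in male WT given PFF (TMM-scaled CPM). The MONO libraries were the 3 highest, and Ms4a7 was 1 of 6 genes without overlap beside 9.87% of all genes. The difference was -1.52 ± 0.71 (log2, PFF minus MONO, SE, edgeR adjusted p = 0.776), and without the female CD163KO MONO library -1.31 ± 1.03 (adjusted p = 0.92). The excluded male CD163KO MONO library had an FPKM of 1.25, within the PFF values of 0.99 to 5.6. The summed markers of border-associated macrophages in these microglia were 96.6, 157 and 148 FPKM with MONO and 100.01, 101.5, 134 and 28.9 with PFF, in the order used for Ms4a7. Without Stab1, which made up 28.9% to 74.8% of this sum, they were 41.2, 73.7 and 106 with MONO and 36.6, 25.6, 63.7 and 10.8 with PFF. The part of these markers in the Ms4a7 values was not tested. Ms4a6d and Ms4a6b, the abundant genes, had differences of -0.01 (95% interval -0.64 to 0.62) and 0.01 (-0.62 to 0.64), whose sign changed in 4 and 11 of 14 alternatives.

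**Figure D4:**
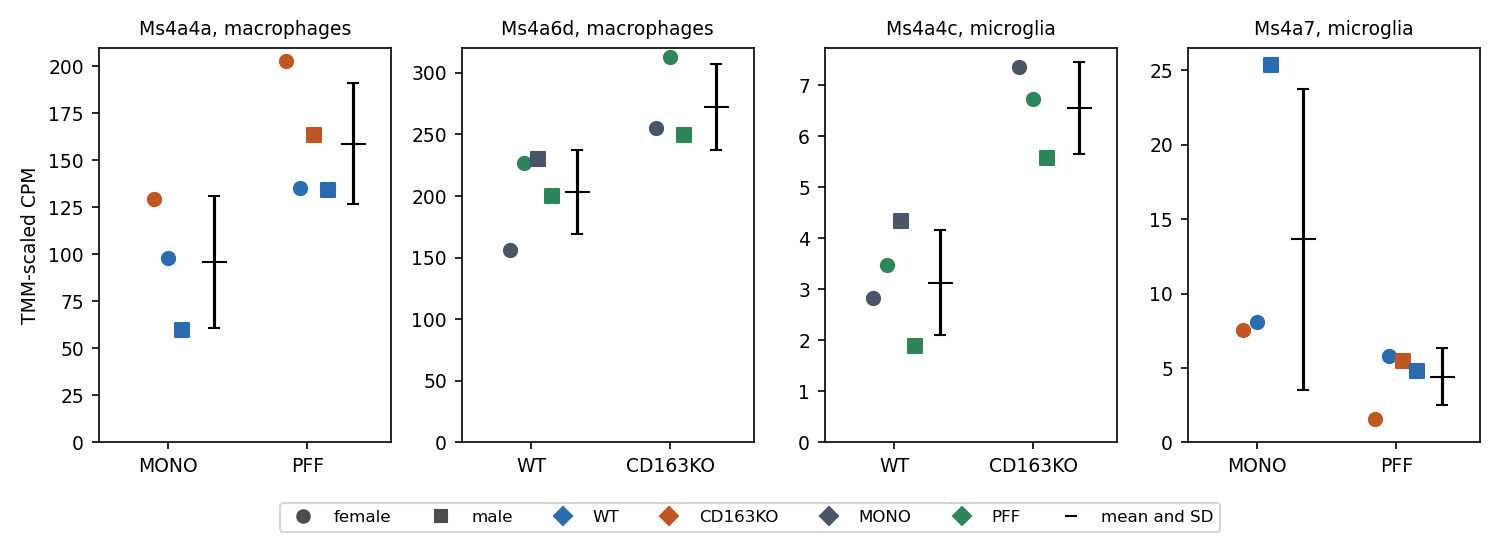
Levels as TMM-scaled CPM, with 1 point per kept library, of the 4 genes whose groups did not overlap, between treatments (Ms4a4a in macrophages, Ms4a7 in microglia) or genotypes (Ms4a6d in macrophages, Ms4a4c in microglia); bars give the mean and SD. None of the 4 was called over all genes, and the male WT MONO library, at 25.3, sets the mean of Ms4a7 with MONO.

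Sex was the third term of the same fits. Between males and females, 0 of 6 genes were called in macrophages and 0 of 6 in microglia (edgeR, adjusted p of 0.9998 or above and 0.9996 or above, beside 0% of all genes called in either). At an unadjusted p under 0.05 the count was 0 in both, as by DESeq2 and limma. In macrophages the estimates lay between -0.38 (Ms4a7) and 0.01 (Ms4a6d) on the log2 scale, males minus females. Each of the 6 changed sign in 3 to 7 of 14 alternatives, and Ms4a4c, Ms4a6c and Ms4a6b reached 0.69, 0.65 and 0.60 with total counts, where the median of all genes was 0.30 beside -0.18 with TMM. Ms4a4a had the widest interval in microglia, -3.36 (95% interval -8.20 to 1.48), with 0.05 to 1.68 in the 3 male libraries and 1.06 to 10.55 in the 4 female ones (TMM-scaled CPM). These ranges overlapped. The Y-linked counts went against the label of the female CD163KO MONO library, at 2.60 here, and without it the difference was -3.53 ± 2.42 (log2, SE, edgeR adjusted p = 1).

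**Figure D5:**
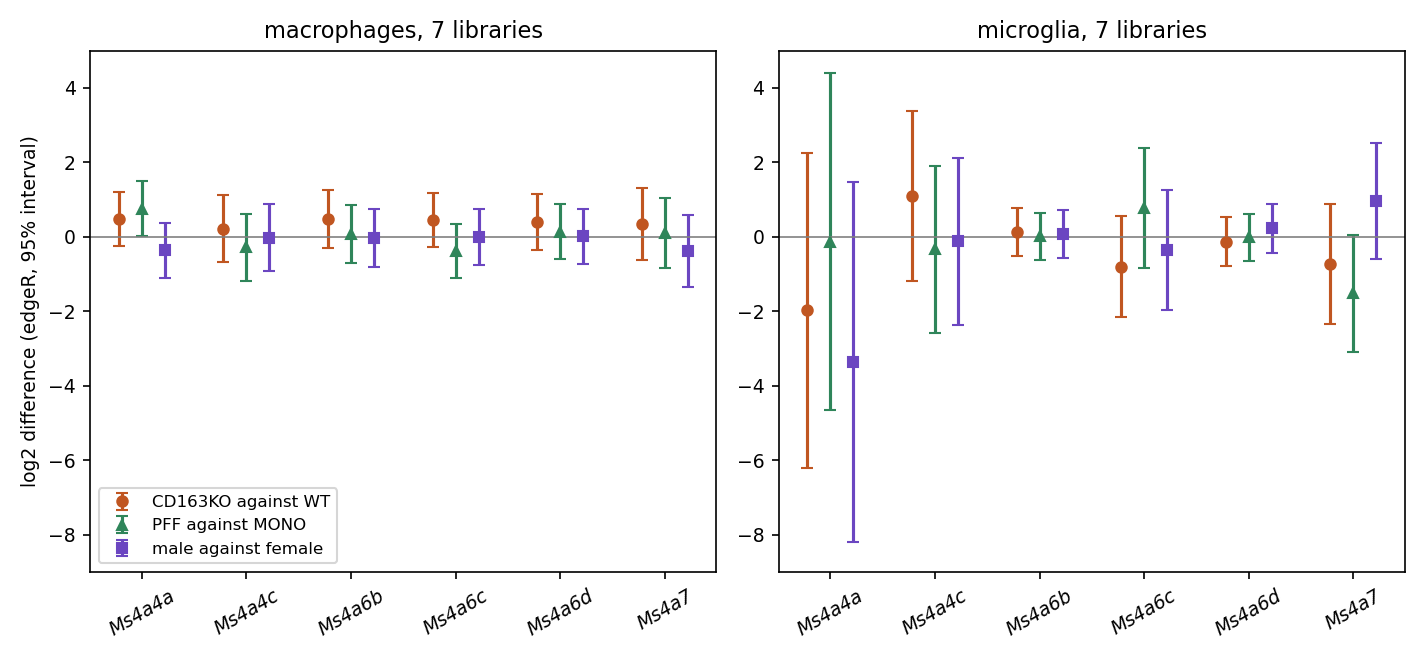
Differences of the 6 Ms4a genes within macrophages and within microglia (log2, edgeR with TMM scaling, 7 libraries each) between genotypes, treatments and sexes, with 95% intervals. Intervals are narrow for Ms4a6b and Ms4a6d in microglia and widest for Ms4a4a in microglia, and the interval of Ms4a4a for PFF against MONO in macrophages, which starts at 0.02, is the one that leaves out 0.

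Whether genotype or treatment acted unequally in the populations was tested as an interaction. For the genotype, 0 of 6 genes were called (beside 0% of 13704 genes called), and for the treatment 0 of 6 (beside 0.0073% called), with an edgeR adjusted p of 1 for each gene in both. At an unadjusted p under 0.05 the counts were 0 of 6 for genotype, beside 167 of 13704 genes (1.22%), and 1 of 6 for treatment, beside 226 of 13704 (1.65%), and by DESeq2 and limma 0 were called in both. The 1 gene was Ms4a7, with a difference of PFF against MONO that was lower in microglia by -1.60 ± 0.63 (log2, SE, unadjusted p = 0.0269, edgeR adjusted p = 1). This fit had no block for the combination that the libraries of both populations shared. With that block, which left 3 residual degrees of freedom, 0 of 6 genes were called in either interaction, and Ms4a7 differed by -1.70 ± 0.54 for the treatment (edgeR adjusted p = 1).

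Within macrophages, the log2 TMM-scaled CPM of pairs of the 6 genes had correlations over 7 libraries from -0.24 to 0.81 (median 0.51 of 15 pairs), and within microglia from -0.58 to 0.58 (median -0.14). These libraries share conditions and scaling. The most alike gene by Pearson's correlation in macrophages was Txnl4a for Ms4a4a (0.97), Ccno for Ms4a4c (0.98), Chrna1 for Ms4a6b (0.99), Vps28 for Ms4a6c (0.97), Med7 for Ms4a6d (0.95) and Kctd6 for Ms4a7 (0.99), each out of 11987 genes. In microglia it was Aldh5a1 for Ms4a4a (0.99), Casp4 for Ms4a4c (0.99), Mpnd for Ms4a6b (0.97), Gps2 for Ms4a6c (0.996), Gemin2 for Ms4a6d (0.99) and Esr1 for Ms4a7 (0.98), each out of 12724 genes. No gene was the most alike in both populations, and each value is the top of all genes compared over 7 libraries.

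Among the 15 other Ms4a genes of RefSeq, 9 had counts, and 5 could be tested between populations. Ms4a4b, the neighbour of Ms4a4c and known from T cells, was called lower in microglia at -6.95 ± 1.29 (log2, SE, edgeR adjusted p = 0.00266) and at -2.12 ± 0.40 in limma on log2(FPKM + 1) (adjusted p = 0.00104). Ms4a8a was called lower too (edgeR adjusted p = 0.00148), with 0 to 23.4 FPKM over the 8 macrophage libraries and 0 in 6 of the 8 microglia libraries, the others reaching 5 counts at most, so that the size of its fold is not given. The 5 genes had a median difference of -6.44 beside 0.37 over all genes, and of -4.47 beside 1.96 with total counts. In limma 3 of them could be tested, with a median of -1.85 beside 1.12. Ms4a3, which marks granulocyte and monocyte progenitors, had a mean of 10.4 and a median of 5.82 FPKM over all 8 macrophage libraries (range 0 to 43.3). It differed by -6.44 ± 2.45 (edgeR adjusted p = 0.1), the value that is the median of the 5 genes. With total counts Ms4a3 differed by -4.47 ± 1.95 (edgeR adjusted p = 0.0547). Ms4a4b had a mean of 6.96 and a median of 5.90 FPKM over the same libraries (0.25 to 14.8), so that the order of these genes by mean was the opposite of that by median. Each of these lay below every kept macrophage value of the 6 members.

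Of 6 receptors and adaptors linked to MS4A proteins, 3 were lower in microglia with TMM scaling, beside 11.6% of all genes, and 1 was higher, beside 6.64%, with a median difference of -1.92 beside 0.37 over all genes. With total counts 2 were lower and 2 higher, beside 4.37% and 41.7% of all genes, and the median was -0.42 beside 1.96. The median of their summed FPKM had a ratio of 1.12, macrophages to microglia. Trem2, a lipid receptor of myeloid cells, was higher by 1.65 ± 0.32 (log2, SE, edgeR adjusted p = 0.00339), with 170.2 to 403 FPKM over all 8 macrophage libraries and 1553 to 2301 over all 8 microglia libraries. Clec7a, the receptor dectin-1, which MS4A4A is known to bind, was lower by -2.28 ± 0.34 (adjusted p = 0.000701), and Fcer1g, the common Fc receptor γ chain, by -2.74 ± 0.70 (adjusted p = 0.0187). Vsig4, a complement receptor, was called lower (edgeR adjusted p = 0.00261), with 0.04 to 11.8 FPKM over the 8 macrophage libraries and 0 in 7 of the 8 microglia libraries, the other having 4 counts, so that the size of its fold is not given. Tyrobp, the adaptor of TREM2, differed by -1.56 ± 0.50 (adjusted p = 0.0506) and the kinase Syk by 0.16 ± 0.24 (adjusted p = 0.687). With total counts Clec7a lost its call (-0.77 ± 0.68, adjusted p = 0.344), Syk was called higher (1.71 ± 0.63, adjusted p = 0.0258) and Tyrobp was at -0.07 ± 0.33 (adjusted p = 0.867). Fcer1g was then at -1.05 ± 0.31 and Trem2 at 3.08 ± 0.37 (edgeR adjusted p = 0.0056 and 5.24e-09). Between genotypes or treatments within a population, none of these genes that could be tested was called. Of 12 genes of the type I interferon response 11 were tested between populations, and 8 were lower in microglia (beside 11.6% of all genes) and 0 higher, with a median of -3.37. With total counts 4 were lower (beside 4.37%), and in limma on log2(FPKM + 1) 5 of 10 (beside 5.98%). The median of their summed FPKM had a ratio of 1.80, macrophages to microglia. None was called within a population.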

How the data were processed

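The authors sequenced sorted cells by SMART-seq2, removed rRNA and low-quality reads, mapped to mm10 with Bowtie2 and estimated expression with RSEM. The deposited estimated counts were not normalized, and the deposited FPKM were scaled to transcript length and assigned reads. Whether a table holds 1 of the triplicates or their pooled reads is not given in the sources used here. RefSeq transcripts (27632 of 27787 named, 99.4%) were summed to 18580 genes, and counts without a symbol took at most 0.128% of a library.

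Counts were rounded and tested with edgeR 4.0.16 (R 4.3.3; TMM, filterByExpr, quasi-likelihood, Benjamini-Hochberg threshold 0.05): populations with sex, genotype and treatment combinations as blocks, and sex, genotype and treatment as additive terms within each population. SE are the log2 difference over the root of F. Each combination has 1 library, so p-values measure the spread over combinations. Members and lists were chosen with earlier results of these data known. Alternatives used DESeq2 1.42.0, limma 3.58.1, other scalings and filters, and left-out libraries. Named are the 6 genes, their transcripts, the most alike genes, and other Ms4a and linked genes past the threshold or among the 2 of highest mean FPKM in their list. Syk, Stab1, Chil3 and Cst3 were named after their values were seen. Procedures were tested on simulated data.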

Additional observations from a re-analysis of the deposited data

Results flagged for a closer look

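The levels of the 6 genes were checked in 12 groups of 8 libraries (each gene in each population) for a library far from the others by Dixon's criterion. It flags about 1 in 20 groups by chance where values follow a normal distribution, and its rate for FPKM, which are skewed, was not determined. Such a library was found for 2 genes. Ms4a4a was at an FPKM of 14.85 in female WT MONO microglia, and the next value was 3.42 in female CD163KO MONO microglia, a gap of 0.77 of the whole range. This library rested on 121 counts of Ms4a4a, and its markers of border-associated macrophages summed to 157 FPKM, of which Stab1 alone made up 83.6, and to 73.7 without it. Ms4a7 was at an FPKM of 25.36 in male WT MONO microglia, and the next value was 8.36 in female WT MONO microglia, a gap of 0.698 of the range. There the markers of border-associated macrophages summed to 148 FPKM, and to 106 without Stab1. Those of monocytes summed to 86.7, of which Chil3 alone made up 70.4, and to 16.3 without it. The part of these markers was not tested.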

How the results depend on the processing

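The count of genes called between populations was 6 in 13 of 16 alternatives and 5 in the other 3 (total counts, and limma with a pseudocount of 1 or 0.1), in which Ms4a6d alone lost its call. In the other 8 comparisons the count was 0 in 128 of 128 alternatives, among them a block on the combination in the tests of interaction, which was chosen after seeing the data. Leaving out each pair of libraries gave 6 called genes in each of 7 fits, with Ms4a7 between -8.46 and -7.82 and Ms4a6d between -2.09 and -1.93. Of 864 values of single genes, 742 kept their direction and side of the threshold, 3 lost the call (Ms4a6d) and 119 changed sign without being called on either side. The genes called over the whole table ranged more widely, from 1767 to 6340 around 2499. Ms4a7 for PFF against MONO in microglia lay between -2.32 and -1.17 over 14 alternatives (adjusted p = 0.386 to 1), and Ms4a4a for PFF against MONO in macrophages between 0.51 and 0.87 (adjusted p = 0.999 to 1). By replicate number no paired analysis was possible, because that number is 1 in every group and only names a library. The populations were paired instead by combination of sex, genotype and treatment, and without these blocks 6 of 6 genes were again called between populations. For the rare genes in microglia depth limits the comparison: Ms4a4a had 0 to 121 counts per library, and the 0 in excluded male CD163KO MONO microglia allows up to 0.167 CPM (3 counts, counting error only).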
